A study of Homo sapiens with 2 samples.

Results

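The 6 human actin genes and 4 contractile genes known as targets of serum response factor (SRF) were examined in H1-derived cells with or without MEIS2. H1 is a widely used human embryonic stem cell line. The 10 genes were taken by name from a list of actins and contractile SRF targets that was drawn up with earlier results of these data known, and no threshold on their values was applied. All 10 were found by their NCBI Gene number among the 17397 genes measured. They comprised the cytoplasmic actins ACTB and ACTG1, the muscle actins ACTA1, ACTA2, ACTC1 and ACTG2, and the contractile genes TAGLN, CNN1, MYL9 and TPM1. The data came from 2 RNA-Seq libraries, 1 from wild-type (WT) H1 cells and 1 from MEIS2-/- H1 cells, both at day 4 of hematopoietic differentiation. Activin A at 50 ng/ml with BMP4 at 40 ng/ml was given to both cultures for the first 2 days, and VEGF at 40 ng/ml with bFGF at 50 ng/ml for 2 more days. The MEIS2-/- cells descended from a single cell picked after CRISPR/CAS9 editing with a lentiviral vector and puromycin selection, and the clone that was sequenced is not named in the sources used here. Levels are given as FPKM, in which the sequenced fragments of a gene are divided by transcript length and by library size, so that levels of different genes can be compared per length.

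Actins are the subunits of the microfilaments. The cytoplasmic actins are made by nearly every cell, whereas the muscle actins are used in the contractile filaments of skeletal muscle (ACTA1), vascular smooth muscle (ACTA2), heart (ACTC1) and visceral smooth muscle (ACTG2). SRF binds a DNA sequence called the CArG box in many of these genes. Its cofactors of the MRTF family are held back by free actin monomers and released when filaments form, so that the state of the actin cytoskeleton feeds back on the transcription of actin genes. Before the heart or any smooth muscle exists, mesoderm cells of the embryo already express some muscle actin genes.

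The CArG box was looked for in the promoters because SRF is the regulator by which these 10 genes were grouped. Promoter windows covering 250 bases before and 50 bases after a transcription start were available from RefSeq for 7 of the 10 genes, ACTG1, ACTA1, ACTA2, ACTC1, ACTG2, CNN1 and TPM1. ACTB, TAGLN and MYL9 were not matched. A CArG box was read as the letters CC, then 6 letters that are each A or T, then GG, a pattern that is the same on both strands. It was present in the windows of 4 of the 7 genes, ACTG1, ACTA1, ACTC1 and ACTG2, and in 1.60% of the 27305 genes with a window. The ACTA2 window held 2 sequences with 1 difference from the box, and 22.3% of all genes with a window held a box or such a near match. The CNN1 and TPM1 windows held neither. The stretches around the boxes are printed in the direction of transcription from assembly GRCh38.p14, with the box, or for ACTA2 its near matches, in capitals. They are shown as a description of the letters. ACTG2 carried 2 boxes and the other 3 genes with a box carried 1 each. Near matches also lay in the box-holding windows of ACTC1 (3), ACTA1 (2) and ACTG2 (1). Any link between the boxes and the levels in the 2 libraries was not tested.
ACTG2, chr2:73892878-73892964, plus strand: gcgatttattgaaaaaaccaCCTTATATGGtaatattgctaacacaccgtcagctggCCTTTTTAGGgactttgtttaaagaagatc
ACTC1, chr15:34795629-34795678, minus strand: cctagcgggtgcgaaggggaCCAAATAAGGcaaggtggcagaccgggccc
ACTA1, chr1:229434162-229434211, minus strand: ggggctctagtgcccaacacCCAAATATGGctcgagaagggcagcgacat
ACTG1, chr17:81512864-81512913, minus strand: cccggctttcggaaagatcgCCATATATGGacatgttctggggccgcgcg
ACTA2, chr10:88952815-88952914, minus strand: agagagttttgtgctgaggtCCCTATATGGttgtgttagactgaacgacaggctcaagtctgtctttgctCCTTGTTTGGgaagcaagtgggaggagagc

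The boxes lay at similar distances from the start. The ACTG2 boxes began 110 and 73 bases before it, the ACTC1 box 109, the ACTA1 box 97 and the ACTG1 box 94. ACTC1 has 3 starts in the table and only the window of 1 of them held a box. ACTA2 has 2 starts, and both near matches lay in the window of the start nearer to the end of the gene. A match in these windows is a description of the letters and not a measured binding site, and boxes farther from a start were not searched.

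The values of the 2 libraries were used as deposited. They summed to 447542 FPKM in the WT and 440651 FPKM in the MEIS2-/- library. No read counts were given, so the depth is unknown and no counting error is given. Low values multiplied by transcript length did not fall on whole-read steps. That check cannot decide whether such steps exist, since the values were rounded and the lengths came from a separate annotation. MEIS2 itself was at 10.85 FPKM in the WT and 3.44 FPKM in the MEIS2-/- library. Every log2 fold change is MEIS2-/- over WT with a pseudocount of 0.1 FPKM on both sides, so that changes of low genes come out too small. Over the 13075 genes that reached 1 FPKM in either library, the median log2 fold change was 0.12. With 1 library per genotype, no difference in these data has a replicate check, no test was possible and no p-value is given.

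Among the 10 genes, ACTG2 was the only one that differed by 2-fold or more between the libraries. The cytoplasmic actins ACTB and ACTG1 were both higher in MEIS2-/- cells by about the same ratio, the other muscle actins were close to their WT level or low in both libraries, and the contractile genes were divided between higher and lower values. All 10 genes passed the filter of 1 FPKM. Of the 10, 1 gene was at least 2-fold higher in MEIS2-/- cells, beside 7.84% of all genes compared, and 0 were at least 2-fold lower, beside 7.97%, so that 1 of 10 passed in either direction, beside 15.8%. At 1.5-fold, 3 of the 10 genes were higher, beside 18% of all genes, and 0 were lower, beside 14.5%. Of the 10 genes, 6 had the higher value in MEIS2-/- cells and 4 the lower. Their median log2 fold change was 0.42, beside 0.12 over all genes compared. With that median, most of all genes compared also had the higher value in MEIS2-/- cells. The counts are near those of all genes, so as a group the 10 genes did not stand apart by how many passed 2-fold.

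**Figure D1:**
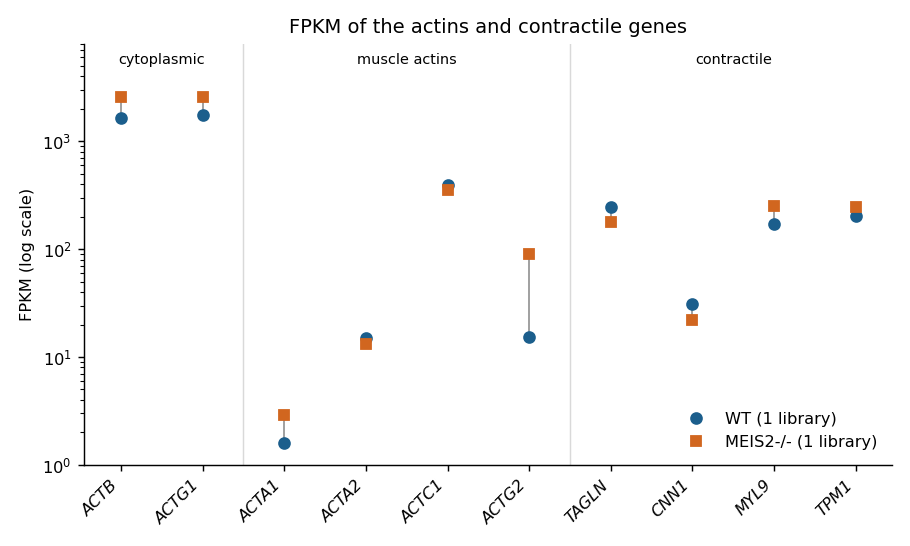
FPKM of each of the 10 genes (log axis) in the WT library (circles) and the MEIS2-/- library (squares), joined by a line, 1 library per genotype and no error bars. ACTG2 has the longest line, from 15.43 to 89.85 FPKM, and ACTB and ACTG1 lie at the top in both libraries.

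The cytoplasmic actins were among the most abundant messages of both cultures. ACTB, which encodes beta-actin, was at 1637.92 FPKM in the WT and 2562.05 FPKM in the MEIS2-/- library, a log2 fold change of 0.65. ACTG1, which encodes gamma-actin, was at 1738.06 FPKM in the WT and 2598.34 FPKM in the MEIS2-/- library, a log2 fold change of 0.58. Both were thus higher in the MEIS2-/- library, by 1.56-fold and 1.49-fold, although ACTG1 came to -0.07 on the log2 scale when ACTB itself was set equal in both libraries. In the order of all 17397 genes by level, ACTG1 moved from place 21 in WT cells to place 3 in MEIS2-/- cells, and ACTB from place 25 to place 4. In FPKM, ACTB gained 924.13 and ACTG1 gained 860.28, which ranked 2 and 3 among the gains of all genes in the tables. The pair kept nearly the same ratio to each other, with ACTG1 at 1.06 times ACTB in WT cells and 1.01 times in MEIS2-/- cells.

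Relative to other abundant messages, the cytoplasmic actins lay toward the upper end. The tables held 834 genes that reached 100 FPKM in either library, with a median log2 fold change of 0.02. Among these 834 genes ACTB ranked 65 and ACTG1 ranked 78 from the largest rise. Of the 834, 3.72% were at least 2-fold higher and 8.03% at least 2-fold lower. ACTB and ACTG1 therefore lay above the middle of their level class without reaching 2-fold.

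**Figure D2:**
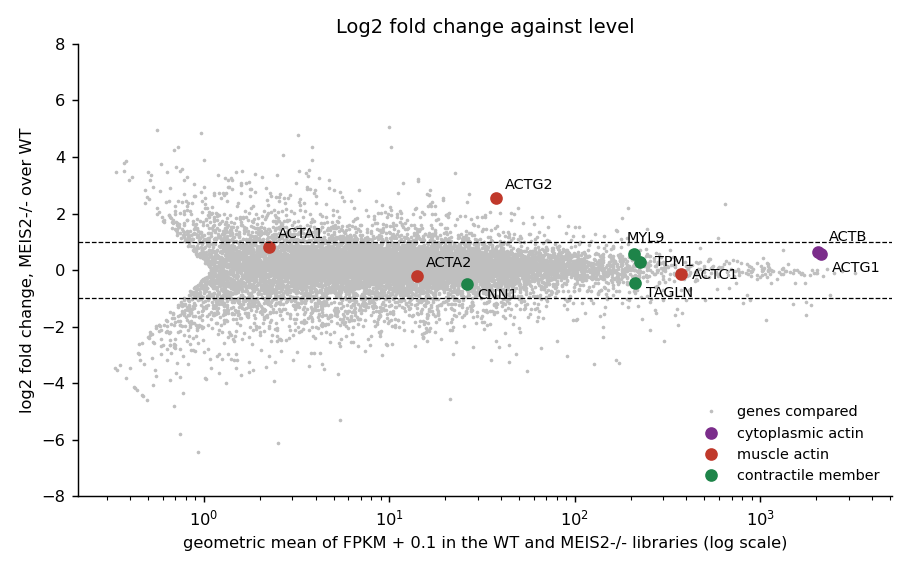
Log2 fold change of MEIS2-/- over WT against the geometric mean level (log axis, FPKM + 0.1) for the 13075 genes compared (grey) and the 10 genes named. ACTG2, at 2.53, lies above the dashed line for 2-fold, and the other 9 genes lie between the lines.

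ACTB is widely used as a reference gene in PCR, and the study itself used it for real-time PCR of undifferentiated cells, so its value was set beside 15 other genes in common use as references. All 15 had a lower log2 fold change than ACTB, and their median was 0.04. YWHAZ, an adaptor protein of signalling, came nearest, at 171.32 FPKM in the WT and 263.97 FPKM in the MEIS2-/- library, a log2 fold change of 0.62. The 2 most abundant were RPL13A, a ribosomal protein, at 2588.24 and 2409.18 FPKM, and GAPDH, a glycolytic enzyme, at 3202.93 and 1741.76 FPKM. PGK1, another glycolytic enzyme, was the only one of the 15 past 2-fold, at 526.98 FPKM in the WT and 121.62 FPKM in the MEIS2-/- library. Measured against GAPDH, ACTB was at 0.511 times its level in WT cells and 1.47 times in MEIS2-/- cells. Measured against RPL13A, the same ratio was 0.633 and 1.06. Measured against YWHAZ, it was nearly level, at 9.56 and 9.71. How far ACTB differed between the cultures thus depended on the gene it was set against. The ratio was higher in the MEIS2-/- library for all 15, though hardly so for YWHAZ.

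**Figure D3:**
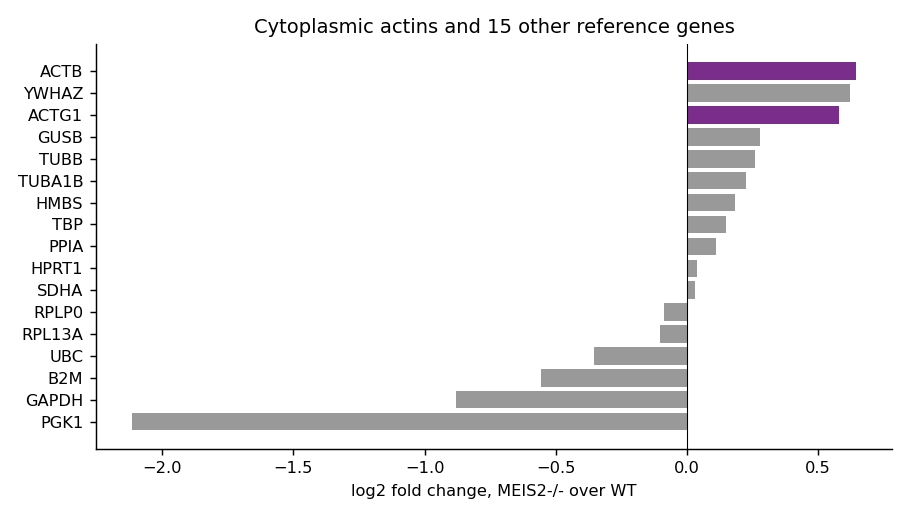
Log2 fold change of MEIS2-/- over WT (bars from 0) for ACTB and ACTG1 (purple) and 15 other reference genes (grey), 1 library per genotype and no error bars. ACTB is at the top with 0.65 and PGK1 at the bottom with -2.11.

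Markers of undifferentiated cells and of visceral endoderm moved in the same direction as the cytoplasmic actins. Of 6 markers of undifferentiated cells, 5 were compared and 3 were at least 2-fold higher in MEIS2-/- cells, beside 7.84% of all genes compared. Their summed level was 536.93 FPKM in the WT and 1831.76 FPKM in the MEIS2-/- library, most of it from POU5F1. LIN28A was at 187.31 and 204.79 FPKM, and SOX2 at 0.09 and 0.15 FPKM. Of 6 visceral endoderm markers, 5 were at least 2-fold higher, beside the same 7.84%. The 6 summed to 423.4 FPKM in the WT and 944.05 FPKM in the MEIS2-/- library, most of it from APOA1. Of those past 2-fold, AFP was at 0.32 and 3.91 FPKM, APOB at 0.27 and 3.72 FPKM and TTR at 0.38 and 5.31 FPKM. The endothelium markers went the other way, with 4 of the 7 compared at least 2-fold lower, beside 7.97% of all genes compared. The list summed to 434.86 FPKM in the WT and 113.56 FPKM in the MEIS2-/- library, most of it from KDR. KDR was at 323.77 and 61.98 FPKM, and PECAM1 was at 1.53 and 0.93 FPKM. The part of these cell types in the actin values was not tested. In bulk RNA, fewer cells of a type and less RNA per cell cannot be told apart.

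ACTG2 encodes gamma smooth muscle actin, the actin of the gut and bladder wall, and lies on the plus strand of chromosome 2. It was at 15.43 FPKM in the WT and 89.85 FPKM in the MEIS2-/- library, a log2 fold change of 2.53, or 5.79-fold. Ordered by log2 fold change from the largest rise, it ranked 106 of the 13075 genes compared. It passed 4-fold as well, as did 1.48% of all genes in the upward direction. In the WT library ACTG2 and ACTA2 were at about the same level, with a ratio of 1.02, and in the MEIS2-/- library ACTG2 was at 6.87 times ACTA2.

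ACTC1, the actin of heart muscle, was the most abundant muscle actin in both libraries. It was at 391.74 FPKM in the WT and 357.35 FPKM in the MEIS2-/- library, a log2 fold change of -0.13. ACTA2, the actin of vascular smooth muscle, was at 15.06 FPKM in the WT and 13.07 FPKM in the MEIS2-/- library, a log2 fold change of -0.20. ACTA1, the actin of skeletal muscle, was at 1.58 FPKM in the WT and 2.88 FPKM in the MEIS2-/- library, a log2 fold change of 0.83 at a level where a small difference in FPKM gives a large ratio. ACTC1 and ACTA2 were thus close to their WT values, and ACTA1 was the lowest actin of all in both libraries, 248 times below ACTC1 in WT cells and 124 times in MEIS2-/- cells. The muscle actin genes did not move together.

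The share of each isoform in the whole of actin message shows the same. The 6 actins summed to 3799.79 FPKM in the WT and 5623.54 FPKM in the MEIS2-/- library, or 0.849% and 1.28% of all FPKM in each library. Cytoplasmic actins made up most of it, with ACTB at 43.1% and ACTG1 at 45.7% of actin FPKM in WT cells, and 45.6% and 46.2% in MEIS2-/- cells. Muscle actins summed to 423.81 FPKM in the WT and 463.15 FPKM in the MEIS2-/- library, so that their share of all actin was 11.2% and 8.24%. This smaller share came with a higher sum of muscle actin, since the cytoplasmic actins differed by more FPKM. Within the muscle actins, ACTC1 held 92.4% in WT cells and 77.2% in MEIS2-/- cells, whereas ACTG2 held 3.64% and 19.4%. ACTA2 held 3.55% and 2.82%, and ACTA1 stayed under 1% in both.

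**Figure D4:**
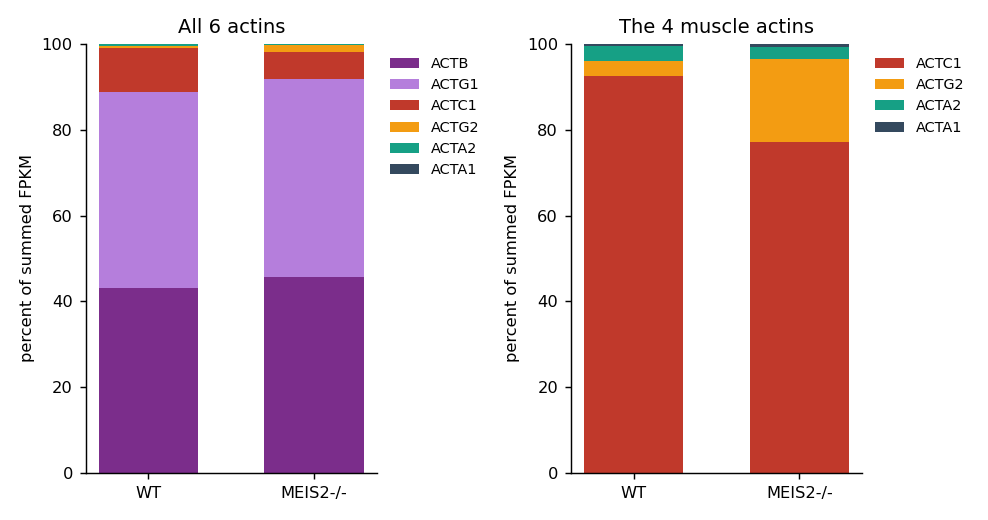
Percent of summed FPKM held by each actin in the WT and MEIS2-/- libraries, for all 6 actins (left) and for the 4 muscle actins (right), as stacked bars from 0 to 100. ACTG2 takes 3.64% of the muscle actin bar in WT cells and 19.4% in MEIS2-/- cells, and ACTB and ACTG1 fill most of the left bars.

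Actin genes are near copies of one another, so it was checked how far their sequences can be told apart. Coding sequences, taken as the longest reading frame of GENCODE 29 transcripts, were 1128 bases long in ACTB and ACTG1, 1131 in ACTG2 and 1134 in ACTA1, ACTA2 and ACTC1. ACTB and ACTG1 were identical at 91.2% of aligned bases, and the other 14 pairs at 82.2% to 86.1%. Although the coding sequences are this close, few stretches of 50 bases were shared exactly. Of the 1763 windows of 50 bases in the ACTB transcript, 1.19% occurred in another of the 10 genes and 10.9% in any other annotated gene, among them the processed copy ACTBP2 and the POTE genes. The share in any other gene was 3.70% for ACTG1, 1.87% for ACTA1, 0.274% for ACTC1 and 0.13% for ACTG2. For ACTA2, TAGLN, CNN1, MYL9 and TPM1 it was 0. The read length is not given in the sources used here, so the values of ACTB and ACTG1 are less certain in this respect than the value of ACTG2, of which 2 of 1540 windows were shared. The listed copies ACTBL2, POTEE, POTEF, POTEI and POTEJ were all under 0.5 FPKM in both libraries.

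The markers of smooth muscle did not follow ACTG2 as a group. Of 8 smooth muscle markers, 4 were compared. Of these, 1 was at least 2-fold higher in MEIS2-/- cells, beside 7.84% of all genes compared, and 1 at least 2-fold lower, beside 7.97%. KCNMB1, a subunit of the smooth muscle potassium channel, was at 0.14 FPKM in the WT and 1.71 FPKM in the MEIS2-/- library. DES, which encodes the muscle filament protein desmin, was at 8.53 FPKM in the WT and 2.1 FPKM in the MEIS2-/- library. The defining marker MYH11, smooth muscle myosin, was at 0.1 FPKM in both libraries, and LMOD1 was at 0.41 and 0.43 FPKM. The median log2 fold change of the 4 compared was -0.68, and 0.03 over all 8 without the filter. The summed level of the 8 markers was 33.19 FPKM in the WT and 21.69 FPKM in the MEIS2-/- library. ACTG2 and ACTC1 were thus read from cultures in which smooth muscle myosin was at 0.1 FPKM, and the part of smooth muscle cells in the ACTG2 value was not tested.

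Most cardiac markers compared were lower, among them NKX2-5 and MYL7 by at least 2-fold, while ACTC1 was near its WT level. Of 14 cardiac muscle markers 9 were compared. Of these, 5 were at least 2-fold lower in the MEIS2-/- library, beside 7.97% of all genes compared, and 0 were at least 2-fold higher. Without a threshold, 2 of the 9 were higher and 7 lower. MYL3, a myosin light chain, had the largest rise of the 9, at 5.06 and 9.34 FPKM. NKX2-5, a transcription factor of the heart field, was at 59.77 FPKM in the WT and 16.55 FPKM in the MEIS2-/- library. MYL7, the atrial myosin light chain, was at 74.51 and 31.3 FPKM. MYL4, another atrial light chain and the most abundant marker of the list, was at 84.16 and 58.13 FPKM, and TNNC1, the slow and cardiac troponin C, was at 58.68 and 60.91 FPKM. MYH7 and MYBPC3 were listed at 0 in WT cells and at 0.01 and 0.14 FPKM in MEIS2-/- cells. Summed over the list, cardiac markers were at 299.81 FPKM in the WT and 185.89 FPKM in the MEIS2-/- library. The median log2 fold change of the 9 was -1.03, and it came to -0.53 with a pseudocount of 1 FPKM or without the filter and to -0.78 with a filter at 5 FPKM. Of 12 skeletal muscle markers 4 were compared. Of these, 1 was at least 2-fold higher, beside 7.84% of all genes compared, and 2 at least 2-fold lower, beside 7.97%. MYOD1 and MYOG, which specify skeletal muscle, were at or under 0.2 FPKM in both libraries.

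The 4 contractile genes were divided by direction. TAGLN, which encodes the actin-binding protein transgelin and lies on chromosome 11, was at 247.3 FPKM in the WT and 180.18 FPKM in the MEIS2-/- library, a log2 fold change of -0.46. CNN1, which encodes the smooth muscle calponin that restrains myosin on actin and lies on chromosome 19, was at 30.88 FPKM in the WT and 21.82 FPKM in the MEIS2-/- library, a log2 fold change of -0.50. MYL9 on chromosome 20, the regulatory light chain of smooth muscle and nonmuscle myosin, was at 171.48 FPKM in the WT and 252.8 FPKM in the MEIS2-/- library, a log2 fold change of 0.56. TPM1 on chromosome 15, the tropomyosin that lies along the actin filament, was at 203.84 FPKM in the WT and 247.89 FPKM in the MEIS2-/- library, a log2 fold change of 0.28. TAGLN and CNN1 were thus lower and MYL9 and TPM1 higher, none of them by 2-fold. With ACTB set equal in both libraries MYL9 and TPM1 came to -0.09 and -0.36, so their direction holds only on the scale of the deposited values and the other 3 scalings tried.

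Each contractile gene belongs to a small family, which allowed its share within the family to be compared. CNN1 held 10.4% of the summed FPKM of the 3 calponins in WT cells and 7.23% in the MEIS2-/- library, with CNN2 at 129.24 and 148.09 FPKM and CNN3 at 135.81 and 131.88 FPKM. MYL9 held 37.8% of the 3 regulatory light chains in WT cells and 47.6% in MEIS2-/- cells, as MYL12A was at 152 and 136.76 FPKM and MYL12B at 129.73 and 141.45 FPKM. TPM1 held 25.5% of the 4 tropomyosins in WT cells and 29.6% in MEIS2-/- cells, and TPM2 24.9% and 17.7%. Transgelin 2, TAGLN2, was at 254.88 FPKM in the WT and 149.58 FPKM in the MEIS2-/- library, so that TAGLN was at 0.970 times TAGLN2 in WT cells and 1.20 times in MEIS2-/- cells. Of the 9 paralogs, 1 passed 2-fold, the neuronal transgelin TAGLN3, at 3.41 FPKM in the WT and 7.79 FPKM in the MEIS2-/- library. The most abundant paralog, TPM4, was at 238.69 and 258.82 FPKM. Thus TAGLN2 was lower beside TAGLN, whereas the tropomyosins differed in direction among themselves.

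Most of the mesenchyme and mural cell markers compared were lower, as TAGLN and CNN1 were, and others were level or higher. Of the 9 mesenchyme markers compared 3 were at least 2-fold lower, beside 7.97% of all genes compared, and 0 higher, beside 7.84%. The list summed to 846.16 FPKM in the WT and 386.47 FPKM in the MEIS2-/- library. COL1A1, a chain of type I collagen, was at 464.09 and 160.87 FPKM and made up most of that difference. COL1A2, the other chain of that collagen, was at 229.1 and 91.75 FPKM. COL3A1, the chain of type III collagen, was at 38.58 and 41.47 FPKM, POSTN at 1.54 and 2.99 FPKM, THY1 at 50.63 and 49.99 FPKM and DCN at 0.07 and 0.06 FPKM. Counted without a threshold, 2 of the 9 were higher and 7 lower, with a median log2 fold change of -0.69. Of the 6 pericyte and mural cell markers compared, 2 were at least 2-fold lower and 0 higher, beside the same shares of all genes. That list summed to 194.76 FPKM in the WT and 140.43 FPKM in the MEIS2-/- library. NOTCH3, a receptor of mural cells, was at 44.74 and 63.13 FPKM, whereas RGS5 was at 98.97 and 55.17 FPKM. Without a threshold, 2 of the 6 were higher and 4 lower, with a median log2 fold change of -0.88. The part of these cells in the values of TAGLN and CNN1 was not tested.

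SRF and its cofactors differed by less than 2-fold. SRF was at 20.62 FPKM in the WT and 27.56 FPKM in the MEIS2-/- library, a log2 fold change of 0.42. MRTFA, the cofactor released by actin assembly, was at 18.92 and 17.73 FPKM, and its relative MRTFB at 2.35 and 3.22 FPKM. MYOCD, which encodes myocardin, the cofactor of SRF in heart and smooth muscle, was at 1.35 FPKM in the WT and 0.69 FPKM in the MEIS2-/- library. ELK1, a ternary complex factor that brings SRF to growth factor response genes, was at 22.87 and 19.73 FPKM. Its relatives ELK3 and ELK4 were at 22.97 and 13.21 FPKM and at 2.93 and 2.03 FPKM. The median log2 fold change of the 7 genes was -0.21, with 2 higher and 5 lower. The RefSeq window at 1 of the 2 starts of SRF held 2 CArG boxes.

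Other contractile and cytoskeletal SRF targets were evenly divided. Of 27 genes in a list written by hand, 24 were compared, of which 12 were higher and 12 lower, with a median log2 fold change of -0.02, beside 0.12 over all genes. Of the 24, 0 were at least 2-fold higher, beside 7.84% of all genes compared, and 3 were at least 2-fold lower, beside 7.97%. These were DES, with the values given above, CSRP2, a LIM protein of smooth muscle, at 96.92 FPKM in the WT and 41.59 FPKM in the MEIS2-/- library, and FHL1, a LIM protein of striated muscle, at 12.49 and 3.67 FPKM. The most abundant gene of the list, FLNA, which encodes the actin crosslinker filamin A, was at 231.07 FPKM in the WT and 310.66 FPKM in the MEIS2-/- library. The fold change of ACTG2 had no match among these 24 genes, whose highest log2 fold change was 0.48. That holds for this list only. KCNMB1, placed among the smooth muscle markers instead, had a log2 fold change of 2.91, from 0.14 to 1.71 FPKM.

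Of the growth factor response genes that SRF controls through ternary complex factors, FOS, JUNB and NR4A1 were at least 2-fold lower in the MEIS2-/- library. They were 3 of the 6 compared among 9 such immediate early genes, beside 7.97% of all genes compared. Of the 6, 0 were at least 2-fold higher, beside 7.84%. The median log2 fold change of the 6 was -0.84, and -0.53 over all 9 without the filter on low values. FOS was at 5.78 FPKM in the WT and 0.94 FPKM in the MEIS2-/- library, JUNB at 25.52 and 11.49 FPKM, and NR4A1 at 41.88 and 17.45 FPKM. Of the most abundant genes of the list, IER2 was at 133.38 and 92.41 FPKM, and MCL1 had its higher value in MEIS2-/- cells, at 48.85 and 58.36 FPKM. EGR1, also among the 6, was close to its WT level, at 7.55 and 6.73 FPKM.

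The proteins that build and turn over actin filaments were examined next. Of the 12 actin nucleation genes, the subunits of the Arp2/3 complex and the diaphanous formins, 10 were higher and 2 lower in MEIS2-/- cells, with a median log2 fold change of 0.31 and 0 genes past 2-fold. ARPC2 was at 155.52 FPKM in the WT and 145.21 FPKM in the MEIS2-/- library, and ARPC3 at 103.98 and 120.51 FPKM. Of the 8 subunits of the chaperonin CCT, which folds newly made actin and tubulin, 7 were higher, with a median of 0.36 and none past 2-fold. CCT7 was at 168.25 and 191.69 FPKM, and CCT3 at 139.42 and 183.08 FPKM. Both medians lay on the same side as ACTB and ACTG1 in the values as deposited, as did the median of 0.12 over all genes compared. They came to 0.19 and 0.24 once the median log2 ratio of the libraries was set to 0. When ACTB was set equal in both libraries they came to -0.34 and -0.29.

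Genes of actin monomer binding and filament turnover had a median log2 fold change of 0.01 over 17 genes, with 9 higher and 8 lower. TMSB10 and TMSB4X, the thymosins that sequester actin monomers, were at 1834.14 and 1633.98 FPKM and at 1312.7 and 1531.68 FPKM in WT and MEIS2-/- cells. The genes past 2-fold were TMOD1 and TMOD2, tropomodulins that cap the slow-growing end of the filament. TMOD1 was at 17.37 FPKM in the WT and 5.29 FPKM in the MEIS2-/- library, and TMOD2 at 2.15 and 0.78 FPKM. Of the 6 genes of nonmuscle myosin II, MYH14 passed 2-fold, at 2.01 and 4.16 FPKM, whereas MYL6 was at 572.25 and 619.81 FPKM and MYH9 at 146.56 and 166.31 FPKM. The median of the 6 was 0.15. The medians of both lists lay closer to 0 than the values of ACTB and ACTG1, and that of filament turnover was -0.10 once the median log2 ratio of the libraries was set to 0.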

How the data were processed

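RNA was extracted with Trizol, prepared with an Illumina TruSeq kit and sequenced by BGI on a Genome Analyzer IIx, 1 library per genotype. The authors deposited FPKM values per gene, rounded to 2 decimals; the submitters' processing notes name BWA, Bowtie, RSEM and hg19, without versions or roles. RSEM divides reads that fit several genes by estimate. Of 17397 NCBI Gene numbers, 17365 were matched to a symbol. Low values of single-transcript genes matched whole-read steps to at most 0.146, where 1 is a complete match, so no counts were recovered. Fold changes used a pseudocount of 0.1 FPKM and a filter of 1 FPKM in at least 1 library. Counts past 2-fold in every list stand beside 7.84% of all genes compared that were higher and 7.97% that were lower. The 10 genes and all lists were chosen with earlier results of these data known. Within gene lists of more than 4 genes, values were given for those past 2-fold and the 2 most abundant. Cell type marker lists were given by counts and sums, with single markers, like YWHAZ, EGR1, the SRF cofactors and the family paralogs, chosen after their values were seen. Promoters came from RefSeq on GRCh38.p14 and transcripts from GENCODE 29, matched by gene and not by coordinates of the files. The fold arithmetic was checked on a copy of the WT values with planted changes and no noise. That check says nothing about the spread between libraries. Tools were pandas 2.3.3, numpy 2.4.6, Biopython 1.88 and matplotlib 3.10.9 under Python 3.11.15. A planned gene list is not reported here.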

Additional observations from a re-analysis of the deposited data

How the results depend on the processing

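The fold changes of the 10 genes were recomputed with pseudocounts of 1 and 0.01 FPKM and after rescaling the libraries to a median log2 ratio of 0, by the trimmed mean of log ratios, or to equal FPKM sums. All 50 values kept their direction and their side of 2-fold, and ACTG2 ran from 2.42 to 2.56, ACTB from 0.53 to 0.67 and ACTG1 from 0.47 to 0.60. Rescaling to a median of 0 lowered every log2 value by 0.11. Setting ACTB equal in both libraries took 0.65 off the log2 ratio before the pseudocount and gave ACTG1 -0.07, MYL9 -0.09 and TPM1 -0.36, with 2 genes, TAGLN at -1.10 and CNN1 at -1.14, at least 2-fold lower in place of 0. That scaling also left 349 of all genes higher and 2676 lower, against 1025 and 1042 as deposited. A pseudocount of 1 FPKM gave 623 and 693. The number of the 10 genes counted as higher was 3 at a 1.5-fold threshold and 0 among genes at 100 FPKM or more, a filter added after the data were seen that leaves out ACTG2. List medians changed sign in 9 cases with settings other than ACTB scaling. Among them the median of the smooth muscle markers went from -0.68 to 0.03 without a filter, the median of the muscle actins was -0.13 with a filter at 5 FPKM, which drops ACTA1, and that of the other contractile SRF targets was 0.06 without a filter. The median of the cardiac markers was -0.53 with a pseudocount of 1 FPKM or without a filter and -0.78 with a filter at 5 FPKM, against -1.03. Without a filter that of the skeletal muscle markers was -0.70, against -1.44. No paired analysis was possible because each genotype has 1 library. Depth is unknown, so the precision of low genes such as ACTA1 cannot be stated.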
